A study of Mus musculus with 6 samples.

Results

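A set of 142 genes, of 11386 measured, was examined in mouse dental mesenchymal cells (mDMCs) before and after culture. The genes of this set lay under 1 unit in the freshly isolated cells and at or above 1 unit in both cultured passages, and they are called P0-low genes here. One unit is a millionth of the summed deposited values of a passage, which equals 18.7 of the deposited normalised values. The level rule gave 158 genes, and 16 genes were then left out by name, because names starting with Col, Slc, Itg, Il, Cxcl, Ccl, Mmp or Serpin, and *Cnn1*, did not enter. The P0, P1 and P2 values themselves chose the genes, so every difference from P0 is given below as a description with no test. The rule did not fix the comparison of P2 with P1, and it was tested. For some members the filter of the deposited tables fixed its direction, as given below.

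The mDMCs came from lower first molar tooth germs of ICR mouse embryos at embryonic day 14.5, with the dental epithelium removed after dispase digestion. P0 cells were freshly isolated, P1 cells were the first passage and P2 cells the second passage in medium with fetal bovine serum. The labels give no other difference between the groups than the passage. RNA-seq was run on 2 libraries per passage, 6 in all, and the sources do not say whether the pairs came from separate cultures, so the tests measure the spread between these libraries, which may be technical. The deposited totals were 1.87e+07 in every passage after normalisation and do not show the sequencing depth.

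Cells that leave a tissue for a plastic dish with serum meet stiff support, growth factors and a wound-like medium, and fibroblast-like cells are known to build stress fibres, matrix and stress-response proteins under such conditions. Serum response factor and the TEAD proteins drive many contractile and stretch-responsive genes, AP-1 drives serum-responsive genes, and ATF4 with its C/EBP partners drives genes of the response to amino acid shortage and to stress in the endoplasmic reticulum (ER). In bulk RNA, more cells of a type and more RNA per cell cannot be told apart.

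All 13 dental mesenchyme markers were measured, and their summed level was 5554 to 5881 units in P0, 11185 to 11877 units in P1 and 8624 to 12615 units in P2. The sum was carried by *Vim*, at a mean of 1504 units in P0 and 7148 units in P1, and *Col1a1*, at 686 and 2138 units. *Vim* and the smooth muscle marker *Acta2* had the same value, 7148 units, in both P1 libraries. Such shared top values of the normalised data need not be measured levels or spreads. By the test, 2 of the 13 rose and 6 fell in P1 against P0 (12.2% and 12% of all genes), with a median log2 difference of -0.48. The 2 that rose were *Vim* and *Col1a1*. *Vim* also had 1 shared value, 1504 units, in both P0 libraries, so its call rests on no measured spread. The means in P0 and P1 were 169 and 65.3 units for *Pax9*, 194 and 57.0 units for *Lhx6* and 192 and 51.5 units for *Dlx1*. Red cell markers summed to 9958 to 14185 units in P0 and to at most 7.59 units in any cultured library. Among them *Hbb-bs*, at 3422 units, and *Hba-a1*, at 1170 units, had the same value in both P0 libraries. The P0 sum thus need not be a measured level. The 6 endothelial markers fell from 340 to 368 units in P0 to at most 9.40 units in culture, and *Pecam1*, *Cdh5* and *Tie1* stayed under 1 unit in every cultured library. The 4 measured epithelial markers summed to 41.5 to 97.7 units in P0 and at most 2.35 units in culture, where *Krt14*, *Krt5* and *Epcam* were under 1 unit. Smooth muscle markers, 7 of 8 measured and *Lmod1* of the present set among them, summed to 51.6 to 71.0 units in P0 and to 9614 to 11874 units in P1. The P1 sum was carried by *Acta2*, at a mean of 7148 units, and *Tagln*, at 2468 units. *Des* did not rise, with means of 5.56 units in P0, 4.49 units in P1 and 2.99 units in P2. Of 7 macrophage markers, 3 were measured, with sums of 38.1 to 42.6 units in P0, 13.2 to 16.8 units in P1 and 36.01 to 62.9 units in P2. The part of these shifts in the levels of the P0-low genes was not tested.

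The P0-low genes were not silent in P0 as a rule. Only 8 of the 142 were listed at 0 in both P0 libraries, namely *Cbr2*, *Aqp5*, *Lims2*, *Olfr78*, *Apol10b*, *2610204G07Rik*, *2200002D01Rik* and *4833427G06Rik*. The other 134 had a P0 mean above 0, and 19 had 1 P0 library at or above 1 unit, up to 1.28 units. The median of the gene means was 0.467 units in P0, 7.95 units in P1 and 10.99 units in P2. The means ranged from 2.91 to 203 units in P1 and from 4.43 to 279 units in P2, and the lowest single cultured library stood at 1.92 units. The smaller of both culture means was at least 10 units for 50 genes, at least 50 units for 8 and at least 100 units for 3. Among the 134 genes with a P0 mean above 0, the smaller culture mean was 3.03 times the P0 mean at the lowest (*Adra2a*), 21.04 times at the median and 687 times at the highest (*Ahnak2*), and it was under 10 times for 35 genes.

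Just inside the P0 bound stood *Apbb1ip* at 0.988 units and *Gpnmb* and *Adra2a* at 0.962 units. Just outside it stood *Ifi47*, *Edn1* and *Fam26e*, each at 1.01 units. *Adra2a* at 2.91 units, *Tgtp1* at 3.04 units and *Parp10* at 3.58 units, all in P1, had the lowest culture means. No gene under 1 unit in P0 had a culture mean under 1 unit, so the culture bound left out no gene. Every gene of the deposited tables had at least 5.40 units in at least 2 of the 6 libraries, so a gene that was low in P0 was in the tables only if it was higher in culture. A member with both P1 libraries under 5.40 units was thus in the tables only through its P2 libraries. The direction of its P2 minus P1 difference was fixed by that. *Lgals3bp*, *Tgtp1*, *Nnmt*, *Dner*, *Adra2a*, *Mlkl*, *Parp10*, *9930111J21Rik1*, *Apol10b*, *Dgkg*, *Aldh1a1*, *Cyb5r2* and *Trnp1* were such members. *Slpi*, with both P2 libraries under 5.40 units, was the reverse case.

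**Figure D1:**
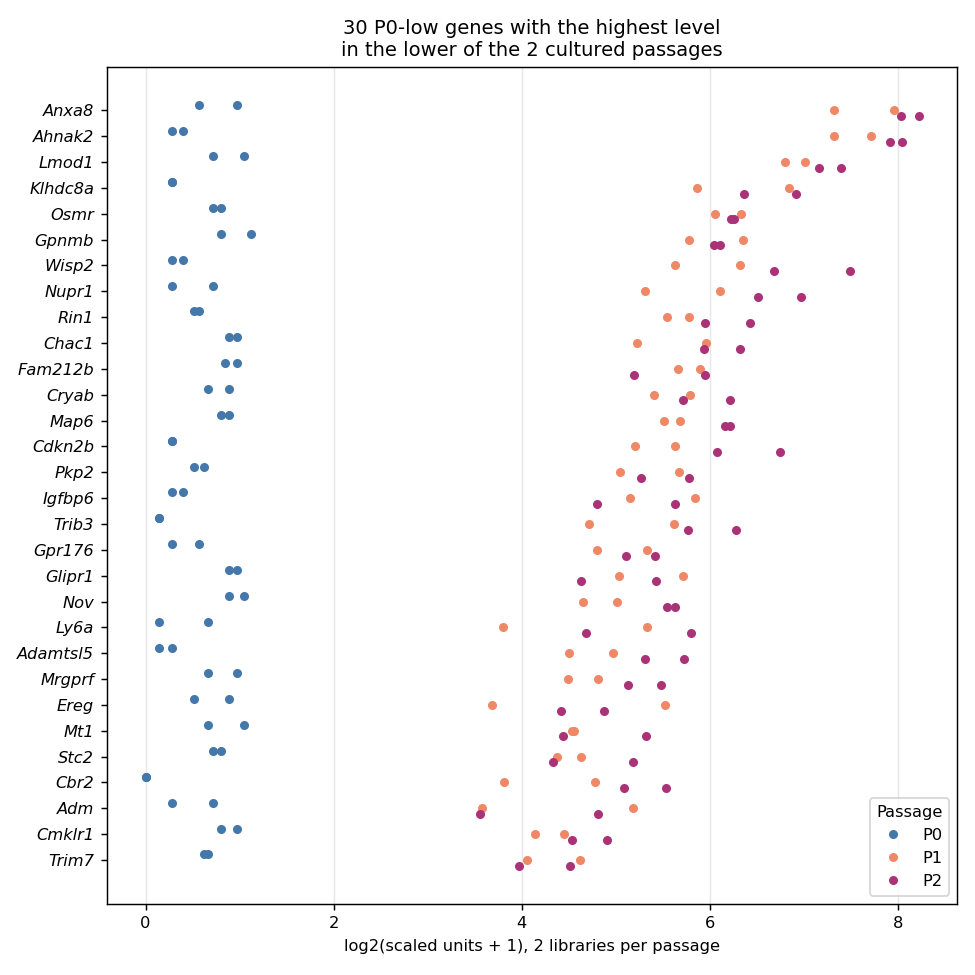
Levels of the 30 P0-low genes with the highest smaller culture mean, as log2(units + 1) on the x axis, with 1 point per library and 2 libraries per passage (P0 blue, P1 orange, P2 purple). The P0 points lie at the left. Both P2 points lie to the right of both P1 points for 14 of the 30 genes, *Map6*, *Cdkn2b* and *Nov* among them, and the P1 and P2 points overlap for the other 16. P2 lay above P1 without overlap for 40.8% of the whole set and 19.4% of all genes. The filter of the tables fixed the direction for some members of the set.

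The median gap between the 2 libraries of a cultured passage, as a difference in log2(units + 1), was 0.53 in P1 and 0.43 in P2 for the P0-low genes. Over all genes it was 0.18 in P1 and 0.17 in P2. Gaps of this size limit what a comparison of P2 with P1 can show.

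Only 1 of the 142 genes was called higher in P2 than in P1, and none was called lower (limma, Benjamini-Hochberg adjusted p under 0.05 over 11386 genes and at least a 2-fold change). The same rule called 0.0878% of all genes higher and 0.211% lower in P2. The called gene was *Cpxm2*, which encodes a secreted protein of the carboxypeptidase family. Its level was 0.694 and 0.748 units in P0, 5.72 and 7.48 units in P1 and 23.2 and 33.6 units in P2. Both P2 libraries lay above both P1 libraries, by 1.94 ± 0.22 (SE) on the log2(units + 1) scale with a limma adjusted p of 0.0386. With the 4 cultured libraries fitted alone, the adjusted p was 0.183 and the call was lost. Differences between passages are given throughout as P2 minus P1 of the mean log2(units + 1), ± the SE of the limma fit. *Cpxm2*, at chr7:132042816-132154739 (mm10), overlaps other annotated genes, *Fgfr2* among them.

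Below that threshold the set was higher in P2 in most of its members. For the members named above the filter of the tables fixed the direction, so the shares of the set below are not free of it. At an unadjusted limma p under 0.05, 40 members were higher in P2 (28.2%; 5.96% of all genes) and 1 was lower (0.704%; 8.35% of all genes). Both P2 libraries lay above both P1 libraries for 58 members (40.8%; 19.4% of all genes), and both lay below for 5 members (3.52%; 19.9% of all genes). The libraries overlapped for the other 79. The members named above with both P1 libraries under 5.40 units are all among the 58. Of them, *Lgals3bp*, *Tgtp1*, *Nnmt*, *Dner*, *Adra2a*, *Mlkl*, *Parp10*, *Dgkg*, *Aldh1a1* and *Trnp1* are also among the 40. *Slpi*, fixed the other way, is the 1 lower member at that p and is among the 5. The mean was higher in P2 for 112 members and lower for 30. The median log2 difference, P2 minus P1, was 0.37 over the members, with quartiles of 0.06 and 0.66, against 0.00 over all genes, with quartiles of -0.14 and 0.14. This lean was shared by other genes that were higher in culture. Among 1146 genes outside the set that were called higher in both P1 and P2 than in P0 and had a P0 mean of at least 1 unit, the median was 0.18, and the P2 libraries lay above P1 without overlap for 39.6% and below for 4.36%.

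**Figure D2:**
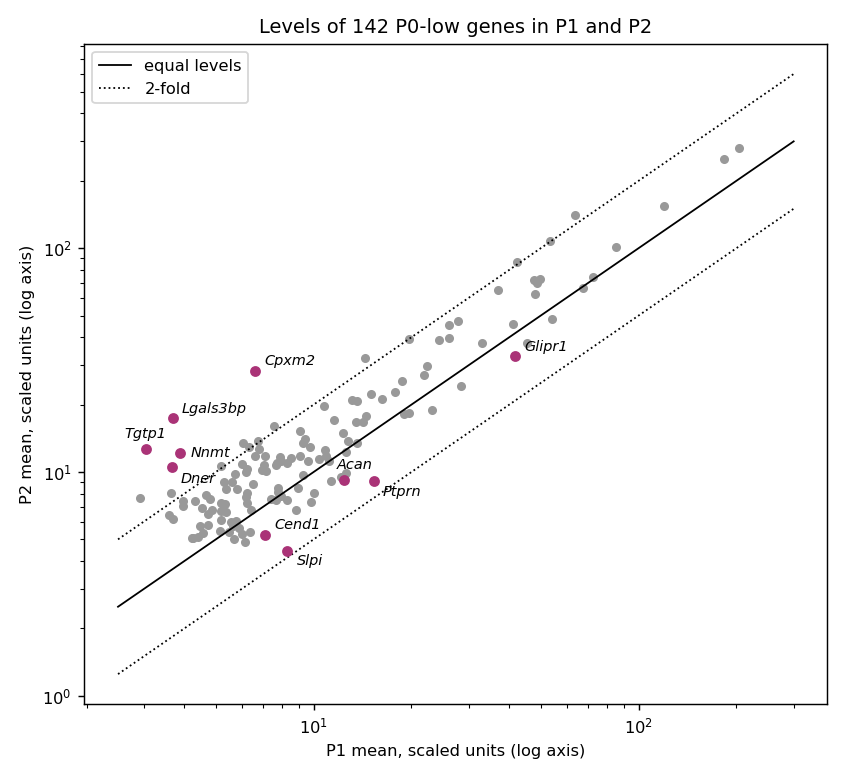
P1 mean (x axis) against P2 mean (y axis) for the 142 P0-low genes, in units on log axes, 1 point per gene. The solid line marks equal levels and the dotted lines a 2-fold difference; *Cpxm2*, at 6.60 units in P1 and 28.4 units in P2, is the only gene called. It is 1 of 16 genes above the upper dotted line, and none lies below the lower one; purple points are the 5 largest differences each way.

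The 142 genes were grouped by the known role of their products after their values were seen, so the grouping is a description. Promoter sequence was looked up for the genes whose deposited start lay within 500 bases of a RefSeq start (mm10, GRCm38.p6), which gave 92 of the 142 genes and 8002 of all genes. A window ran from 250 bases before to 50 bases after the start. The promoter stretches printed below are a selection, and windows of further members that hold the same motifs are not printed. For the TEAD motif these include *Lmod1*, *Mrvi1*, *Spire2* and *Tnnc1* of the muscle and cytoskeleton group. Each stretch is given 5′ to 3′ on the strand of the gene, with the motif named beside it in capitals. Positions count from the RefSeq start, with negative numbers upstream. A match is a stretch of letters and not evidence that a factor binds.

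The muscle and cytoskeleton group had 15 genes. *Lmod1*, leiomodin 1, which nucleates actin filaments in smooth muscle, stood at 0.641 and 1.07 units in P0, 111 and 128 units in P1 and 142 and 167 units in P2. Its P2 libraries lay above its P1 libraries, by 0.37 ± 0.16 on the log2 scale, which did not pass the test (limma adjusted p = 0.381). *Cryab*, a small heat shock protein abundant in muscle and lens, was at 0.588 and 0.855 units in P0, 41.4 and 54.3 units in P1 and 51.3 and 73.2 units in P2, and P1 and P2 overlapped. *Map6*, a protein that stabilises microtubules against cold, was at 0.748 and 0.855 units in P0, 44.8 and 50.3 units in P1 and 70.5 and 73.5 units in P2, with P2 apart from P1 and a difference of 0.59 ± 0.12 (limma adjusted p = 0.0890).

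Genes of striated muscle were among the 15. *Acta1*, skeletal muscle alpha-actin, was at 0.694 and 1.18 units in P0, 6.94 and 8.12 units in P1 and 15.8 and 16.5 units in P2. The P2 libraries of *Acta1* lay above the P1 libraries by 1.01 ± 0.18 (limma adjusted p = 0.0706), which missed the threshold. *Ankrd1*, a stretch-responsive nuclear and sarcomeric protein and a known target of the YAP and TEAD proteins, was at 0 and 0.427 units in P0, 2.62 and 15.5 units in P1 and 11.8 and 18.8 units in P2, and its P1 duplicates were so far apart that the passages overlapped. *Ldb3*, a Z-disc protein, was at 0.0534 and 0.107 units in P0, 7.48 and 8.23 units in P1 and 8.33 and 14.9 units in P2, with P2 above P1. *Tnnc1*, the calcium-binding troponin of slow muscle and heart, was at 0.427 and 0.962 units in P0, 2.51 and 6.94 units in P1 and 3.42 and 9.51 units in P2, and the passages overlapped. The skeletal muscle markers *Myog* and *Myh3* lay outside the set. *Myog* was at 4.65 and 11.97 units in P0, 6.73 and 24.2 units in P1 and 7.27 and 36.9 units in P2, with overlap of all passages. *Myh3* was at 7.21 and 23.8 units in P0, 4.59 and 5.61 units in P1 and 2.24 and 2.67 units in P2.

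The remaining muscle and cytoskeleton genes were *Lims2* (a focal adhesion adaptor), *Mrvi1* (now *Irag1*, which links cGMP signalling to calcium release in smooth muscle), *Sync*, *Klhl30*, *Sh3bgr*, *Klc3*, *Spire2* and *Myo1h*. Their means lay between 5.69 units (*Myo1h*) and 11.1 units (*Sh3bgr*) in P1 and between 5.02 units (*Myo1h*) and 19.7 units (*Lims2*) in P2. *Lims2* was listed at 0 in both P0 libraries and stood at 7.64 and 13.9 units in P1 and 13.04 and 26.3 units in P2. Over the 15 genes, P2 lay above P1 without overlap for 6 and below for none, a share close to that of the whole set (40.8%; 19.4% of all genes). Their median log2 difference was 0.44.

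Outside the set, 29 further genes of a smooth muscle and contractile list were measured. This list and every list below were written with earlier results of these data known. The counts of their further genes are thus a description, also where the share of all genes is given. Of these, 23 rose in P1 against P0 and 2 fell, where 12.2% of all genes rose and 12% fell, and 23 rose and 2 fell in P2 against P0, where 14% rose and 14.4% fell. *Actg2*, smooth muscle gamma-actin, was at 1.34 and 1.39 units in P0 and 639 and 891 units in P1. None of the 34 measured genes of that list, members included, was called between P1 and P2. Of all genes, only 0.0878% were called higher and 0.211% lower in P2, so few calls could be seen in a list of this size. Of 25 further YAP/TEAD and SRF targets, 12 rose and 1 fell in P1 against P0 (12.2% and 12% of all genes).

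The promoters of 3 muscle genes are shown for the CArG box, the site of serum response factor, and for the TEAD motif, which was searched as GGAATG. The AP-1 motif was searched as TGANTCA and, like every motif here, on both strands. For the promoter element known as the TATA box, the 6 letters were TATAAA in all searches. *Acta1* holds a CArG box at -73 to -64, a TEAD motif at -46 to -41 and a TATA box at -7 to -2 (the RefSeq start lies 39 bases from the deposited one), at chr8:123894776-123894875, minus strand.
Acta1: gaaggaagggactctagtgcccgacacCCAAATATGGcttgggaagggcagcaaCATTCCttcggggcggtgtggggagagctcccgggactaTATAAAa
*Ldb3* holds an AP-1 motif at -95 to -89 and a CArG box at -35 to -26, at chr14:34588682-34588801, minus strand.
Ldb3: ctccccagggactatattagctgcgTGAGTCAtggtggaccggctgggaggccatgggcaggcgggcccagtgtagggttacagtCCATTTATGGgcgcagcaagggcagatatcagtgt
*Ankrd1* holds the TEAD motif at -210 to -205 and again at -123 to -118, at chr19:36119950-36120069, minus strand.
Ankrd1: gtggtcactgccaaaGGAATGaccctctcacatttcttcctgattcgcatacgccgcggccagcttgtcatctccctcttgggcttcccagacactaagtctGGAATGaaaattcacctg

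The membrane scaffold, junction and adhesion group had 6 genes, with the gene of the highest level per kilobase among them. *Anxa8*, an annexin that binds membrane phospholipids in the presence of calcium, was at 0.481 and 0.962 units in P0, 159 and 248 units in P1 and 260.1 and 297 units in P2. Both P2 libraries of *Anxa8* lay above both P1 libraries, by 0.49 ± 0.24 (limma adjusted p = 0.449). *Ahnak2*, a giant scaffold protein related to the AHNAK partner of annexin and S100 proteins, was at 0.214 and 0.321 units in P0, 158 and 209 units in P1 and 240.3 and 262 units in P2, and it too had P2 above P1, by 0.46 ± 0.15 (limma adjusted p = 0.265). Per kilobase of transcript, *Anxa8* had the highest level in both passages, 108 units per kilobase in P1 and 148 in P2, whereas the long *Ahnak2* had 33.7 and 46.1. *Pkp2*, a desmosomal plakophilin, was at 0.427 and 0.534 units in P0, 32.05 and 50.1 units in P1 and 37.4 and 53.96 units in P2, with overlap. *Gpnmb*, a transmembrane glycoprotein of macrophages, melanocytes and osteoblasts, was at 0.748 and 1.18 units in P0, 53.7 and 80.97 units in P1 and 64.9 and 68.2 units in P2, with overlap. *Igsf9b* and *Tspan17* had P1 means of 14.2 and 5.80 units, with overlap. Outside the set, 12 of 15 further annexin and S100 genes rose in P1 against P0 and 1 fell (12.2% and 12% of all genes). Of 9 further keratin and epithelial genes, the list of *Pkp2*, 2 rose and 6 fell. Of 48 further adhesion and cell surface genes, the list of *Gpnmb*, 14 rose and 16 fell.

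The matrix and secreted protease regulator group held 15 genes and the called gene *Cpxm2*. *Wisp2* (now *Ccn5*), a matricellular protein of the CCN family, was at 0.214 and 0.321 units in P0, 48.3 and 79.1 units in P1 and 102 and 179 units in P2. *Nov* (now *Ccn3*), of the same family, was at 0.855 and 1.07 units in P0, 24.2 and 31.3 units in P1 and 45.6 and 48.5 units in P2. In both, P2 lay above P1 without overlap, by 1.11 ± 0.32 (limma adjusted p = 0.200) and 0.75 ± 0.16 (limma adjusted p = 0.104). *Adamtsl5*, a secreted ADAMTS-like protein without protease activity, was at 0.107 and 0.214 units in P0, 21.7 and 30.3 units in P1 and 38.8 and 52.1 units in P2. *Mfap5*, a microfibril protein of elastic fibres, was at 0.107 and 0.427 units in P0, 13.99 and 16.1 units in P1 and 17.95 and 26.6 units in P2. P2 was apart from and above P1 for these last genes too, and for *Mamdc2*, *Tg* and *Ecm1*.

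Other genes of the group went the opposite way. *Slpi*, secretory leukocyte protease inhibitor, was at 0.214 and 0.214 units in P0, 7.91 and 8.71 units in P1 and 4.17 and 4.70 units in P2. Its P2 libraries lay below its P1 libraries, with a log2 difference of -0.78 ± 0.18 (SE; limma adjusted p = 0.118), and it was the only member lower at an unadjusted p under 0.05. The filter of the tables fixed the direction for *Slpi*. *Rarres1* at 11.4 and 12.8 units in P1 and 8.12 and 10.9 units in P2, and *Dpep1*, a membrane dipeptidase, at 10.5 and 12.2 units in P1 and 7.80 and 10.4 units in P2, were also lower in P2 without overlap. *Acan*, the aggrecan core protein of cartilage, was at 0.321 and 0.427 units in P0, 5.55 and 19.2 units in P1 and 4.06 and 14.4 units in P2, and its duplicates differed more than its passages. The cartilage marker *Col2a1* went from 82.5 and 99.6 units in P0 to 12.6 and 20.9 units in P1. *Adamts18* and *Adamtsl4* had P1 means of 6.14 and 5.18 units, with overlap. Over the 15 genes, P2 lay above P1 without overlap for 8 (40.8% of the set and 19.4% of all genes), below for 3 (3.52% and 19.9%) and overlapped for 4. Of 67 further matrix genes, 37 rose and 10 fell in P1 against P0 (12.2% and 12% of all genes).

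*Ecm1*, a secreted glycoprotein of skin and bone matrix, was at 0 and 0.0534 units in P0, 4.27 and 6.09 units in P1 and 6.41 and 6.95 units in P2. Its promoter is shown because it holds an AP-1 motif at -64 to -58 and a TATA box at -27 to -22, at chr3:95739570-95739659, minus strand.
Ecm1: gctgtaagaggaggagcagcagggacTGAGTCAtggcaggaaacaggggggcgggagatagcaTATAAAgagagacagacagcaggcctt

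Secreted signals and their receptors formed a group of 13. *Osmr*, the receptor subunit that binds oncostatin M together with gp130, was at 0.641 and 0.748 units in P0, 65.5 and 79.4 units in P1 and 73.6 and 75.3 units in P2. P1 and P2 of *Osmr* overlapped and differed by 0.05 ± 0.13. *Lif*, leukaemia inhibitory factor, a cytokine of the same family, was at 0.107 and 0.321 units in P0, 5.02 and 14.5 units in P1 and 9.67 and 16.3 units in P2, with overlap. The partners outside the set went in opposite directions. *Il6st*, which encodes gp130, rose from 168 and 173 units in P0 to 427 and 536 units in P1 (limma adjusted p = 0.000361). *Lifr*, the LIF receptor, was at 56.2 and 65.3 units in P0, 31.5 and 38.7 units in P1 and 25.1 and 29.4 units in P2. The log2 difference of *Lifr* from P0 was -0.78 in P1 (limma adjusted p = 0.00585), less than 2-fold and so not called. In P2 it was -1.13 (limma adjusted p = 0.00113).

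Growth factors and hormones were members too. *Ereg*, epiregulin, a ligand of the epidermal growth factor receptor, was at 0.427 and 0.855 units in P0, 11.9 and 44.97 units in P1 and 20.3 and 28.4 units in P2. *Adm*, adrenomedullin, a vasodilator peptide, was at 0.214 and 0.641 units in P0, 10.9 and 35.2 units in P1 and 10.8 and 27.03 units in P2. For both the P2 libraries lay inside or overlapped the range of the P1 libraries. *Igfbp6*, a binding protein with preference for IGF-II, was at 0.214 and 0.321 units in P0, 34.5 and 56.3 units in P1 and 26.8 and 48.6 units in P2, with overlap. *Inhbb*, the activin beta B subunit, was at 0.427 and 0.481 units in P0, 9.19 and 16.99 units in P1 and 18.8 and 23.2 units in P2, with P2 above P1 by 0.69 ± 0.28 (limma adjusted p = 0.348).

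*Dner*, a transmembrane protein with EGF repeats that can act as a Notch ligand, was at 0.694 and 0.801 units in P0, 3.42 and 3.90 units in P1 and 7.37 and 13.8 units in P2. Its difference of 1.26 ± 0.29 was among the 5 largest of the set but missed the threshold (limma adjusted p = 0.123). The filter of the tables fixed the direction for *Dner*. *Tnfsf18* (GITR ligand) and *Fam132b* (now *Erfe*, erythroferrone, a regulator of iron) also had P2 above P1 without overlap, with P2 means of 10.04 and 10.6 units. *Artn* (a GDNF family ligand), *Ntn4* (a netrin), *Angptl6* and *Rnf43* (a ligase that limits Wnt receptors) had P1 means of 4.81 to 8.84 units, and their passages overlapped. Over the 13 genes the median log2 difference was 0.05. P2 lay above P1 without overlap for 4 (40.8% of the set and 19.4% of all genes) and below without overlap for none (3.52% and 19.9%). Of 57 further cytokine, growth factor and receptor genes, 20 rose and 17 fell in P1 against P0 (12.2% and 12% of all genes).

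The *Lif* promoter is shown for an AP-1 motif at -228 to -222, at chr11:4257323-4257373, plus strand.
Lif: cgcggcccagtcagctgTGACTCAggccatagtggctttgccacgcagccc

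The amino acid and ER stress response group had 4 genes. *Nupr1*, a small stress-induced chromatin protein, was at 0.214 and 0.641 units in P0, 38.7 and 67.9 units in P1 and 90.1 and 124 units in P2. *Trib3*, a pseudokinase induced by ATF4 and CHOP, was at 0.107 and 0.107 units in P0, 25.3 and 48.3 units in P1 and 53.4 and 76.4 units in P2. *Chac1*, an enzyme that degrades glutathione and another ATF4 target, was at 0.855 and 0.962 units in P0, 36.4 and 61.1 units in P1 and 60.5 and 78.8 units in P2. P2 lay above P1 without overlap for *Nupr1*, by 1.03 ± 0.31 (limma adjusted p = 0.215), and for *Trib3*, by 0.85 ± 0.32 (limma adjusted p = 0.309), and the passages overlapped for *Chac1*. *Stc2*, stanniocalcin 2, a secreted glycoprotein induced by ER stress, was at 0.641 and 0.748 units in P0, 19.8 and 23.8 units in P1 and 19.1 and 35.4 units in P2, with overlap. Per kilobase of transcript, *Nupr1* was second to *Anxa8* with 64.3 units per kilobase in P1 and 129 in P2.

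Regulators of that response outside the set were measured as well. *Ddit3*, which encodes CHOP, was at 22.8 and 24.3 units in P0, 59.4 and 90.4 units in P1 and 101 and 123 units in P2. It rose by 1.60 ± 0.21 (SE) on the log2 scale in P1 (limma adjusted p = 0.00134) and by 2.20 ± 0.21 in P2 (limma adjusted p = 0.000312). *Atf4* was at 242 and 245 units in P0, 360.2 and 419 units in P1 and 428 and 440 units in P2, less than a 2-fold difference from P0. *Cebpb* had means of 35.3 units in P0, 62.3 units in P1 and 77.5 units in P2. These partners were looked up after the members were seen.

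The C/EBP-ATF element, searched as TGATGNAA, was found in the windows of *Chac1*, *Nupr1* and *Trib3*. The stretch of *Chac1* is shown, with the element read on the other strand at -193 to -186, at chr2:119351022-119351082, plus strand.
Chac1: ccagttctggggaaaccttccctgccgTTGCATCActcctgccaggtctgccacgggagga

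Genes linked to interferon and innate immunity made a group of 14. P2 lay above P1 without overlap for 10 of them (40.8% of the set and 19.4% of all genes) and below without overlap for none (3.52% and 19.9%). Of the 10, *Lgals3bp*, *Tgtp1*, *Mlkl*, *Parp10*, *9930111J21Rik1* and *Apol10b* had both P1 libraries under 5.40 units. The filter of the tables fixed their direction, so the count is not free of it. *Lgals3bp*, a secreted glycoprotein that binds galectins, had the largest difference of the set. It was at 0.321 and 0.694 units in P0, 2.03 and 5.34 units in P1 and 16.8 and 17.95 units in P2, a difference of 2.07 ± 0.36 that missed the threshold (limma adjusted p = 0.0636). *Tgtp1*, an interferon-inducible GTPase, was at 0.641 and 0.801 units in P0, 1.92 and 4.17 units in P1 and 9.03 and 16.3 units in P2, a difference of 1.76 ± 0.37 (limma adjusted p = 0.0993). Of its 50-base stretches, 91.4% are also found in *Tgtp2*, so its reads cannot be assigned to one copy with certainty. *Tap2*, a subunit of the peptide transporter for antigen presentation, was at 0.534 and 0.588 units in P0, 4.54 and 8.92 units in P1 and 10.7 and 16.8 units in P2. Its partner *Tap1*, outside the set, had means of 14.8 units in P0, 29.9 units in P1 and 26.6 units in P2. *Ly6a* (Sca-1), a surface protein of many progenitor cells and inducible by interferon, was at 0.107 and 0.588 units in P0, 12.98 and 39.3 units in P1 and 24.6 and 54.7 units in P2, with overlap between the passages.

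Other members of the group had smaller differences. *Mlkl*, the effector of necroptosis, was at 0.374 and 0.427 units in P0, 3.85 and 4.06 units in P1 and 5.93 and 8.23 units in P2. *Tmem140*, an interferon-induced membrane protein, was at 0.481 and 0.855 units in P0, 4.81 and 5.82 units in P1 and 8.01 and 10.04 units in P2. *Parp10*, a mono-ADP-ribosyltransferase, was at 0.214 and 0.534 units in P0, 3.31 and 3.85 units in P1 and 5.56 and 7.27 units in P2. All 3 had P2 above P1, by 0.69 ± 0.21, 0.66 ± 0.21 and 0.69 ± 0.23, with limma adjusted p of 0.214, 0.243 and 0.258. *9930111J21Rik1* and *Mnda* had P2 above P1 too, but 79.8% and 72.9% of their 50-base stretches are shared with related genes. *Apol10b*, *Ssc5d*, *Ikbke*, *Siglecg* and *Apol6* had P2 means of 5.72 to 11.01 units. The median log2 difference of the 14 genes was 0.67.

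Macrophage markers, outside the set, were also higher in P2 than in P1. *Lyz2* was at 7.26 and 8.07 units in P0, 4.91 and 7.58 units in P1 and 24.5 and 49.3 units in P2. *Csf1r* was at 17.3 and 18.5 units in P0, 1.01 and 1.18 units in P1 and 2.99 and 3.10 units in P2. *Ptprc* was at 13.6 and 16.1 units in P0, 7.26 and 8.07 units in P1 and 8.55 and 10.6 units in P2. P2 was above P1 without overlap for all 3 measured markers of 7 listed (19.4% of all genes), and 1 was called higher (0.0878% of all genes). Their part in the interferon-linked genes was not tested. Of 18 further interferon and antigen presentation genes, 8 rose and 2 fell in P1 against P0 (12.2% and 12% of all genes).

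Promoters of *Tgtp1* and *Tmem140* are shown for the interferon-stimulated response element, searched as TTTCNNTTTC and found here on the other strand. In *Tgtp1* it lay at -77 to -68, at chr11:48992291-48992351, minus strand.
Tgtp1: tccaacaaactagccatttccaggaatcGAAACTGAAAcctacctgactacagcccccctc
In *Tmem140* it lay at -63 to -54, at chr6:34863051-34863111, plus strand.
Tmem140: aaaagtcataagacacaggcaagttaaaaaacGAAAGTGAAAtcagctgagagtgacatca

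A single cell cycle inhibitor was in the set. *Cdkn2b*, which encodes the CDK4 and CDK6 inhibitor p15INK4b, was at 0.214 and 0.214 units in P0, 35.9 and 48.5 units in P1 and 66.2 and 107 units in P2. Both P2 libraries lay above both P1 libraries, by 0.99 ± 0.25 (limma adjusted p = 0.153). Of 30 further p53 targets and cell cycle inhibitors, 21 rose and 2 fell in P1 against P0 (12.2% and 12% of all genes).

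The metallothioneins *Mt1* and *Mt2*, small cysteine-rich proteins that bind zinc and copper, were members and are neighbours on chromosome 8. *Mt1* was at 0.588 and 1.07 units in P0, 22.1 and 22.6 units in P1 and 20.6 and 39.1 units in P2. *Mt2* was at 0.214 and 0.321 units in P0, 10.4 and 14.7 units in P1 and 8.92 and 15.7 units in P2. The passages overlapped in both. Of the *Mt2* stretches of 50 bases, 45.5% are shared with the overlapping annotated gene *Gm45774*. The *Mt2* promoter is shown for an AP-1 motif at -79 to -73, at chr8:94172513-94172573, plus strand.
Mt2: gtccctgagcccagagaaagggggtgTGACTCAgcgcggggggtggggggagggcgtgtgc

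Small-molecule and lipid metabolism was represented by 11 genes. *Cbr2*, a carbonyl reductase abundant in mouse lung, was listed at 0 in both P0 libraries and stood at 13.03 and 26.4 units in P1 and 32.9 and 45.3 units in P2. *Fabp3*, the fatty acid binding protein of heart muscle, was at 0.855 and 1.07 units in P0, 11.96 and 16.8 units in P1 and 31.6 and 32.9 units in P2. *Nnmt*, which methylates nicotinamide, was at 0.427 and 0.427 units in P0, 3.31 and 4.43 units in P1 and 10.1 and 14.1 units in P2. P2 lay above P1 without overlap for all 3, by 1.01 ± 0.33 (limma adjusted p = 0.255), 1.13 ± 0.19 (limma adjusted p = 0.0571) and 1.42 ± 0.23 (limma adjusted p = 0.0538), and none passed the threshold. For *Fabp3*, 37.3% of the 50-base stretches are shared with a processed copy.

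Retinoid and aldehyde enzymes were also present. *Aldh1a1*, a retinaldehyde dehydrogenase, was at 0.427 and 0.748 units in P0, 4.38 and 4.70 units in P1 and 6.73 and 7.11 units in P2, with P2 above P1. *Adh7*, an alcohol dehydrogenase that also acts on retinol, was at 0.321 and 0.321 units in P0, 8.12 and 10.4 units in P1 and 8.55 and 10.8 units in P2, with overlap, as was *Aox1*, aldehyde oxidase, at 2.88 and 5.77 units in P1 and 5.45 and 9.35 units in P2. *Apobr*, a receptor for lipoproteins with apolipoprotein B48, was at 3.10 and 9.03 units in P1 and 11.3 and 15.5 units in P2, and *Cyb5r2* at 2.03 and 5.23 units in P1 and 5.61 and 10.6 units in P2, both with P2 above P1. *A4galt*, *Gchfr* and *Pnpla2* (adipose triglyceride lipase) overlapped. The median log2 difference of the 11 genes was 0.67. P2 lay above P1 without overlap for 6 (40.8% of the set and 19.4% of all genes) and below without overlap for none (3.52% and 19.9%). The filter of the tables fixed the direction for *Nnmt*, *Aldh1a1* and *Cyb5r2*. Of 24 further xenobiotic, glutathione and NRF2 genes, 12 rose and 3 fell in P1 against P0 (12.2% and 12% of all genes).

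The G protein-coupled receptors, with a regulator of their signalling, numbered 9. *Gpr176*, an orphan receptor, was at 0.214 and 0.481 units in P0, 26.9 and 39.2 units in P1 and 33.5 and 41.7 units in P2, with overlap. *Mrgprf*, another orphan receptor, was at 0.588 and 0.962 units in P0, 21.6 and 27.1 units in P1 and 33.98 and 43.8 units in P2, with P2 above P1 by 0.65 ± 0.20 (limma adjusted p = 0.223). *Cmklr1*, the receptor of chemerin, was at 0.748 and 0.962 units in P0, 16.7 and 20.8 units in P1 and 22.1 and 29.1 units in P2, with P2 above P1. The adrenergic receptor *Adra1d* was at 14.1 and 14.96 units in P1 and 15.4 and 19.98 units in P2. *Adra2a*, another adrenergic receptor, was at 2.14 and 3.69 units in P1 and 7.27 and 8.01 units in P2, and both receptors had P2 above P1. The filter of the tables fixed the direction for *Adra2a*. *Olfr78*, an olfactory receptor also expressed in vessels and the carotid body, was listed at 0 in P0 and stood at 8.12 and 10.7 units in P1 and 10.3 and 17.95 units in P2. *Adora1*, *Gper1* and *Rgs21* had P2 means of 6.76 to 8.82 units. Of 30 further receptors and signalling regulators, 8 rose and 7 fell in P1 against P0 (12.2% and 12% of all genes).

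GTPase, kinase and signalling adaptors numbered 11. *Rin1*, a Ras effector and exchange factor for Rab5, was at 0.427 and 0.481 units in P0, 45.7 and 53.7 units in P1 and 60.8 and 84.7 units in P2. *Fam212b* (now *Inka2*, an inhibitor of the kinase PAK4) was at 0.801 and 0.962 units in P0, 49.8 and 58.6 units in P1 and 35.6 and 60.6 units in P2. P2 lay above P1 for *Rin1*, by 0.53 ± 0.18 (limma adjusted p = 0.286), and the passages of *Fam212b* overlapped. *Gatsl3* (now *Castor1*, the arginine sensor of the mTORC1 pathway) was at 0.641 and 0.641 units in P0, 10.8 and 16.1 units in P1 and 13.9 and 19.7 units in P2, with overlap. *Rassf5*, *Ptk2b* (the kinase Pyk2) and *Dgkg* had P2 above P1, with P2 means of 12.7, 9.75 and 7.43 units. For *Dgkg* the filter of the tables fixed the direction. The other 5, *Tbc1d2*, *Arhgap22*, *Arhgef19*, *Styk1* and *Apbb1ip*, overlapped.

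The 8 channels, pumps and transporters had a median log2 difference of 0.13, and only *Atp6v0e2* had P2 above P1 without overlap (40.8% of the set and 19.4% of all genes did). *Aqp5*, a water channel of salivary and sweat glands, was listed at 0 in P0 and stood at 6.78 and 16.3 units in P1 and 12.3 and 21.7 units in P2. *Steap1*, *Tmem37*, *Frrs1*, *Nipal4*, *Scn3b* and *P2rx6* had P1 means of 4.22 to 13.6 units. Of 33 further ion channel and transport genes, 9 rose and 10 fell in P1 against P0 (12.2% and 12% of all genes).

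Transcription and RNA regulators were 6. *Lhx9*, a LIM homeobox factor of gonad and limb, was at 0.214 and 0.321 units in P0, 8.92 and 9.61 units in P1 and 12.9 and 14.1 units in P2. *Foxs1*, a forkhead factor of pericytes and neural crest derivatives, was at 0.321 and 0.641 units in P0, 7.16 and 9.40 units in P1 and 8.92 and 13.04 units in P2. *Cpeb1*, which controls polyadenylation in the cytoplasm, was at 0.107 and 0.107 units in P0, 5.82 and 6.20 units in P1 and 10.8 and 11.01 units in P2. P2 lay above P1 without overlap for *Lhx9* and for *Cpeb1*, by 0.76 ± 0.16 (limma adjusted p = 0.102). *Fam46b*, *Tcfl5* and *Trim66* overlapped. Of 24 further genes of a transcription factor list, 2 rose and 10 fell in P1 against P0 (12.2% and 12% of all genes).

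There were 7 non-coding genes. *Gm14005* was at 0.214 and 0.321 units in P0, 12.9 and 19.5 units in P1 and 19.98 and 22.6 units in P2, with P2 above P1, and *8430436N08Rik* had P2 below P1, at 5.82 and 6.20 units in P1 and 4.92 and 5.66 units in P2. *2610204G07Rik*, *3300005D01Rik*, *Gm14636*, *Gm6634* and *Map2k3os* overlapped. The library kit did not mark the strand, so antisense reads are not told apart.

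The last 20 genes had other or no assigned roles. *Klhdc8a*, a kelch domain protein, was at 0.214 and 0.214 units in P0, 57.04 and 114 units in P1 and 81.5 and 120.0 units in P2, with overlap. *Glipr1*, a secreted CAP family protein, was at 0.855 and 0.962 units in P0, 31.8 and 51.5 units in P1 and 23.7 and 41.99 units in P2, and its mean was lower in P2, with overlap. *Trim7*, a ubiquitin ligase that binds glycogenin, was at 0.534 and 0.588 units in P0, 15.6 and 23.6 units in P1 and 14.6 and 21.9 units in P2, with overlap. *Ptprn*, a protein of dense-core secretory vesicles, was at 0.321 and 0.588 units in P0, 11.9 and 18.8 units in P1 and 7.37 and 10.8 units in P2, and both P2 libraries lay below both P1 libraries, with a log2 difference of -0.68 ± 0.28 (limma adjusted p = 0.350). *Cend1* was at 6.52 and 7.64 units in P1 and 3.63 and 6.84 units in P2. The other 15 were *Tor4a*, *2200002D01Rik*, *Ttll11*, *1600002K03Rik*, *Nacad*, *Fam83h*, *Tmem144*, *Lrrc75b*, *Prune2*, *Prrg4*, *4833427G06Rik*, *Fam110c*, *Trnp1*, *Mettl21b* and *9130008F23Rik*, with P1 means of 4.25 to 12.3 units. Of these 20 genes, 6 had P2 above P1 without overlap (40.8% of the set and 19.4% of all genes) and 1 below (3.52% and 19.9%). Their median log2 difference was 0.22. For *Trnp1* the filter of the tables fixed the direction.

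**Figure D3:**
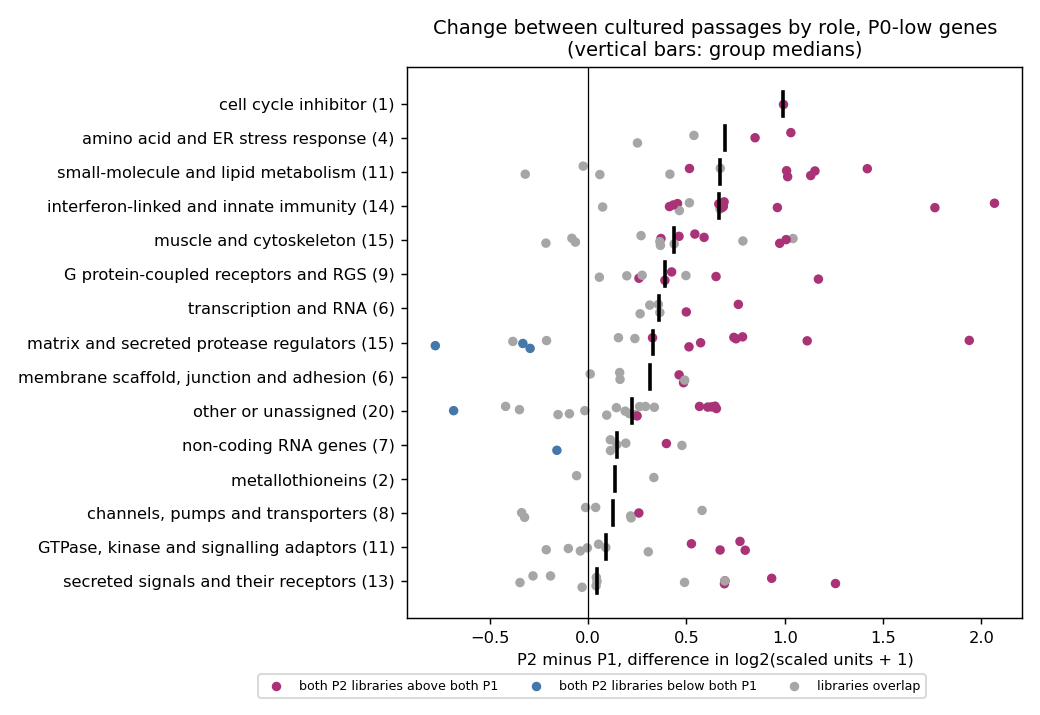
P2 minus P1 difference in log2(units + 1) for each P0-low gene (1 point per gene) by role group, with the number of genes in brackets and the group median as a vertical bar. The interferon-linked group (median 0.67) holds 10 genes with both P2 libraries above both P1 libraries (purple), the secreted signals have a median of 0.05, and 3 of the 5 genes with both P2 libraries below both P1 libraries (blue) are matrix and protease regulators. For some of the 10 interferon-linked genes the filter of the tables fixed the direction.

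Some members were neighbours in the genome. Within 100000 bases of each other lay 10 pairs, made of 19 members, and no other measured gene lay between the partners of 8 pairs. The pairs were *Klhl30* and *Fam132b* on chromosome 1, *Rassf5* and *Ikbke* on chromosome 1, *Gatsl3* and *Lif* on chromosome 11, *Trim7* and *9930111J21Rik1* on chromosome 11 (with *Irgm1* between), *9930111J21Rik1* and *Tgtp1* on chromosome 11, *Adamtsl4* and *Ecm1* on chromosome 3, *Fam46b* and *Trnp1* on chromosome 4, *Apobr* and *Nupr1* on chromosome 7, *Cend1* and *Pnpla2* on chromosome 7 (with 3 measured genes between) and *Mt2* and *Mt1* on chromosome 8. The partners of a pair need not have the same course: *Apobr* and *Nupr1* both had P2 above P1, whereas *Gatsl3* and *Lif* overlapped and *Ecm1* had P2 above P1 beside an overlapping *Adamtsl4*. Chromosome 7 held 18 members, 12.7% of the set, where it holds 7.11% of all measured genes. As to annotation, 135 members are protein coding, 61 overlap another annotated gene, and 10 share over 20% of their 50-base stretches with another gene.

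The promoter windows of the P0-low genes held fewer CpG dinucleotides than those of all measured genes, with a median of 12.5 (quartiles 6 and 22.3) against 22 (quartiles 15 and 30). Their median GC content was 58.3% against 62%. The AP-1 motif was found in 17 of 92 windows, 18.5%, against 4.14% of the 8002 windows of all genes, on either strand. Besides those printed, it was present in *2200002D01Rik*, *3300005D01Rik*, *9930111J21Rik1*, *A4galt*, *Adh7*, *Adora1*, *Aox1*, *Apobr*, *Fam110c*, *Gm6634*, *Gpnmb*, *Tmem37* and *Tor4a*. The TEAD motif was in 15 windows, 16.3% against 11.7%, and the CArG box in 5, 5.43% against 1.27%, namely *Acta1*, *Cbr2*, *Ldb3*, *Prune2* and *Trnp1*. The TATA box was in 11 windows, 11.96% against 6.40%. An antioxidant response element (TGACNNNGC) was in 16 windows, 17.4% against 14.8%.

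The last 3 motifs were added after the values were seen. The interferon-stimulated response element was in 6 windows, 6.52% against 2.66%, namely *9930111J21Rik1*, *Apol10b*, *Inhbb*, *Mnda*, *Tgtp1* and *Tmem140*. The C/EBP-ATF element was in 7 windows, 7.61% against 1.89%, namely *Chac1*, *Cyb5r2*, *Ecm1*, *Fabp3*, *Nupr1*, *Tnfsf18* and *Trib3*. The metal response element (TGCACNC or TGCGCNC), known from metallothionein promoters and found here in *Mt1* and *Mt2*, was in 26 windows, 28.3%, below the 37.5% of all genes. The shares were not adjusted for base composition.

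**Figure D4:**
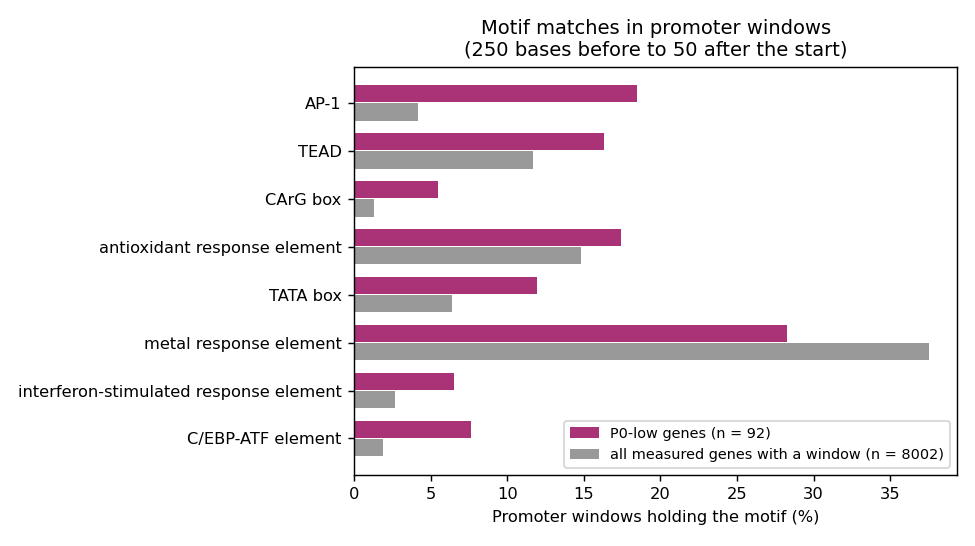
Share of promoter windows (%, x axis, from 0) that hold each motif on either strand, for the 92 P0-low genes with a window (purple) and all 8002 measured genes with one (grey). The AP-1 bars stand at 18.5% and 4.14%, and the metal response element is the motif with the lower share among the P0-low genes.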

How the data were processed

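RNA-seq of mDMCs was analysed in 6 libraries, 2 each for P0, P1 and P2. Per the study's methods, reads were aligned with bowtie to mm10 with Ensembl annotation, quantified with RSEM (version 1.1.21 in the submitters' processing notes, another version in the methods), corrected for GC content with EDASeq and compared with DESeq2. The deposited score values are the authors' normalised levels, a mean and an error per gene and passage; they are not raw counts. The error was the population SD of 2 whole values divided by the square root of 2, so both library values of every gene were recovered, whole within 1e-06. The files do not say which value is which replicate. The tables hold 11386 genes, all with at least 101 deposited units in 2 libraries, and 1 line in each and a few single genes are not reported here. Depth per library cannot be read from normalised values, so no counting interval is given.

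Each passage was scaled to 1000000 units. Values were tested as log2(units + 1) with limma 3.58.1 (lmFit, eBayes with trend) in R 4.3.3 over all genes and all 6 libraries, two-sided, with Benjamini-Hochberg adjustment. A call needed an adjusted p under 0.05 and a 2-fold difference, and each fold is on the log2(units + 1) scale, which understates low genes. A filter of at least 1 unit in 2 libraries removed no gene. The fit had 3 residual and 3.06 prior degrees of freedom. The method was tested on simulated data. Gene spans, lengths and shared 50-base stretches came from GENCODE M21 and promoters from RefSeq (GRCm38.p6).

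The members and lists were chosen with earlier results of these data known. Genes were named by this rule: members of a listed pathway, the 30 with the highest smaller culture mean, those called in P2 against P1 or, with fewer than 5 calls, the 5 largest differences each way, those nearest the bounds, and neighbours. Other members were named for their role after their values were seen. Alternatives changed the level bound, the use of means, the scaling, the name exclusions, the pseudocount, the filter, the fold minimum and the libraries fitted.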

Additional observations from a re-analysis of the deposited data

How the results depend on the processing

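The size of the set depended on the level bound: 77 genes met it at 0.5 units, 275 at 2 units and 605 at 5 units, against 142 at 1 unit. Applied to both library values in place of the means, the rule gave 123 genes, and it gave 158 with no name left out. With the P1 and P2 libraries fitted alone, no gene passed the test in either direction (0 members and 0 of 11219 genes; 95 genes, 11 of them members, had an unadjusted p under 0.05 and a 2-fold difference by limma), and *Cpxm2* kept its log2 difference of 1.94 but missed the threshold at an adjusted p of 0.183. Its adjusted p was 0.0364 to 0.0402 under the other settings, which changed the pseudocount, the filter or the scaling. Without a fold minimum, the test passed 19 genes of the whole table upward from P1 to P2 and 103 downward, in place of 10 and 24. Median-ratio scaling turned the sign of *Tbc1d2* alone, to a log2 difference of 0.0018. The direction and the side of the threshold stayed as reported for the other 141 members under that scaling, for all 142 under pseudocounts of 0.5 and 0.1, and for the 77 left by a filter of 10 units in 2 libraries. The median log2 difference of the set lay between 0.37 and 0.40 under every setting run. No paired analysis was possible because the files do not show which of the 2 values of a passage belongs to which replicate number, and for the same reason no replicate was left out. With 2 libraries per passage, the gaps between duplicates in P1 and P2, larger in these genes than over all genes, limit which differences can pass the test.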
